A study of Homo sapiens with 9 samples.

Results

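The genes described here are 10 components of the machinery that takes a cell from G1 into S phase: the D cyclins CCND2 and CCND3, the kinases CDK4 and CDK6, the inhibitors CDKN2C and CDKN1B, the E cyclins CCNE1 and CCNE2, the pocket protein gene RB1 and the transcription factor gene MYC. They are listed by name, with no threshold on their values, and all 10 were found among the 52158 named genes of the count table. RNA came from 9 established human lines that carry the label oesophageal adenocarcinoma and a gastric cardia source, grown untreated to 80% confluency: FLO-1, JH_EsoAd1, OAC_5.1_C, SK-GT-4, ESO-51, ESO-26, OE33, OACP4_C and OE19. Each line gave 1 library, so differences between lines have no replicate check and no test, and the intervals below cover counting error only. The first 3 lines named held at most 3 counts of CDKN2A, the gene of the INK4 inhibitor p16, and are set against the other 6 where CDKN2A status is read.

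D-type cyclins activate CDK4 and CDK6, which phosphorylate the RB1 protein and so release E2F transcription factors; cyclin E with CDK2 then completes RB1 phosphorylation and helps to start DNA replication. INK4 proteins, encoded by CDKN2A, CDKN2B, CDKN2C and CDKN2D, bind CDK4 and CDK6 and block them, whereas CIP/KIP proteins such as p27, the product of CDKN1B, act chiefly on CDK2 complexes. MYC pushes cells towards division, and loss of CDKN2A and extra copies of cyclin, CDK and MYC genes are recurrent in oesophageal adenocarcinoma.

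The libraries held between 16801179 counts (ESO-26) and 69881539 counts (FLO-1), and mitochondrial genes took 24.7% of counts in JH_EsoAd1 against at most 7.04% elsewhere. Summed over 6 epithelial markers, levels were lowest in ESO-26, at 161 CPM (counts relative to library size, after TMM scaling), and highest in OAC_5.1_C, at 14089 CPM. ESO-26 held only 5.13 CPM of EPCAM and 0.17 CPM of CDH1, which goes against its epithelial label. It had the highest sum of 3 fibroblast markers, 313 CPM, nearly all of it COL3A1. The other fibroblast markers did not follow: COL1A1 was lowest in ESO-26, at 0.577 CPM, and LUM was at 0.692 CPM, against 30.1 CPM in OAC_5.1_C. OE33 held 903 CPM of KRT8 and 247 CPM of KRT18. Its KRT19 was the lowest of the 9 libraries, at 16.0 CPM. It held only 0.19 CPM of EPCAM, 0.79 CPM of ELF3 and 21.5 CPM of CDH1. Leukocyte markers summed to at most 2.02 CPM, and CDH5, the endothelial marker found in the table, reached at most 29.8 CPM. The OE19 line is known for amplified ERBB2, yet the library labelled OE19 held 185 CPM of ERBB2 and the library labelled SK-GT-4 held 18325 CPM. Line names therefore stand for libraries as labelled, and counts are also given without those 2 libraries; whether these features bear on the genes below was not tested.

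The 10 genes fell into widely varying and steady members. CCND2 ranged over 9.02 on the log2(CPM + 1) scale, more than 99.5% of the 17129 genes with at least 1 CPM in at least 2 libraries, and CCNE1, CDK6 and CDKN2C ranged over 4.37, 4.23 and 3.99. CDKN1B and RB1, at 1.28 and 1.35, and CDK4, at 1.48, were narrower than most genes. The median range over the 10 genes was 3.04, against 2.04 over all genes passing that filter, which all 10 passed; without OE19 and SK-GT-4 it was 2.16, against 1.82.

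Each library was next set against the median of the other 8. Of 90 values (10 genes in 9 libraries), 19 lay at least 2-fold above, or 21.1%, against a background of 12.8% over all genes, and 14 lay at least 2-fold below, or 15.6%, against 10.3%. At 4-fold, 6 values lay above, or 6.67%, against 4.3%, and 2 lay below, or 2.22%, against 3.22%. Without OE19 and SK-GT-4, 15 of 70 values lay 2-fold above, or 21.4%, against 12.9% of all genes, and 8 lay below, or 11.4%, against 10.4%, so that the lower count was then near the background. At 4-fold 5 of the 70 lay above and 0 below, but the share of all genes at 4-fold was not counted in that setting. The lower count was also 7 of 80 without ESO-51, or 8.75%, against 10.5% of all genes, and 9 of 80 without SK-GT-4, or 11.2%, against 10.6%. The excess of lower values over the background therefore depended on having ESO-51 and SK-GT-4 among the libraries. It depended on the pseudocount too: with 0.1 the count stayed at 14, or 15.6%, against 16.3% of all genes. SK-GT-4 itself held 0 of the lower values and entered only through the median of the others. Of the lower values, 5 were in OE19 and 4 in ESO-51. By gene, 4 of the 14 were CCND2, in FLO-1, OE33, OAC_5.1_C and OE19, on 3, 1, 6 and 5 counts. These lie near the floor, so part of the excess of lower values rests on 1 gene with hardly any reads. OE19 had the lowest level of CCND3, CDK6, CCNE1 and CCNE2, yet the highest of MYC.

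**Figure D1:**
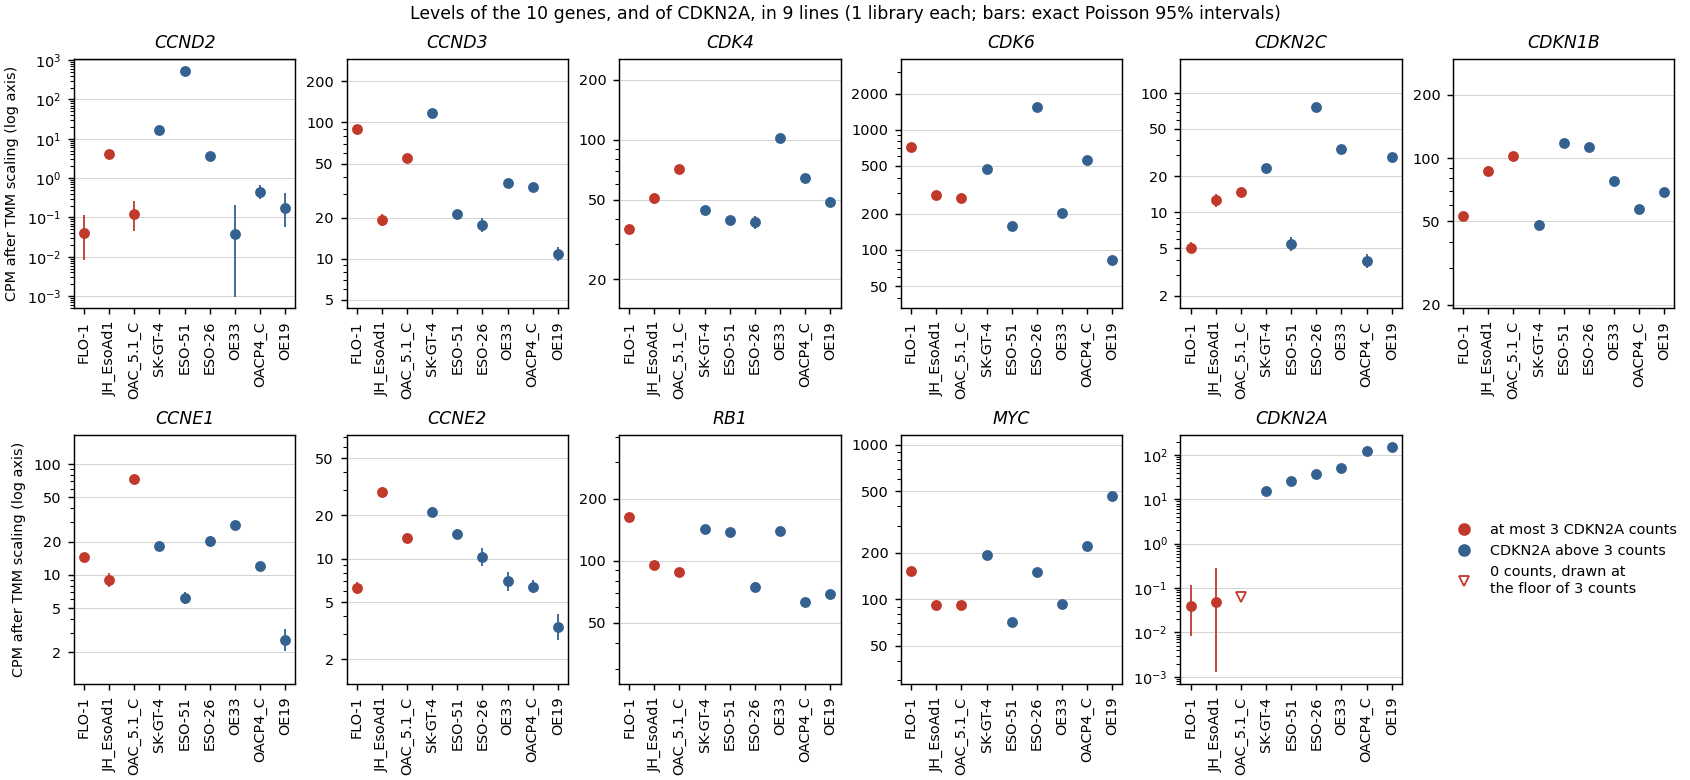
Level of each gene, and of CDKN2A, in CPM after TMM scaling on a log axis, 1 point per library with its exact Poisson 95% interval; red marks the 3 libraries with at most 3 CDKN2A counts and blue the other 6. CCND2 spans 0.0377 to 539 CPM, while CDKN1B stays between 48.2 and 118 CPM, and red and blue points overlap for all 10 genes, although 1 red point lies outside the blue range for CDK4, CCNE1, CCNE2 and RB1.

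**Figure D2:**
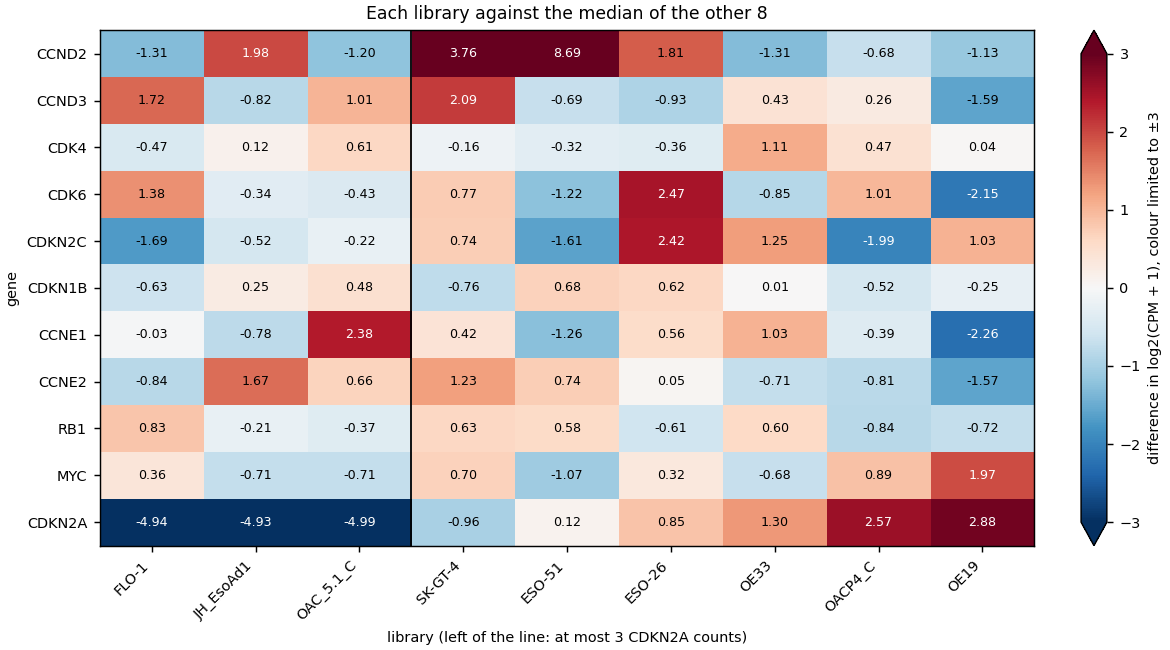
Difference in log2(CPM + 1) between each library and the median of the other 8, for each gene and CDKN2A; the line separates the 3 libraries with at most 3 CDKN2A counts. The value farthest from 0 among the 10 genes is CCND2 in ESO-51, at 8.69.

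CCND2 encodes cyclin D2, which with its relatives senses growth signals. It was at 0.0400 CPM in FLO-1, 4.16 CPM in JH_EsoAd1 and 0.123 CPM in OAC_5.1_C. The other libraries held 16.7 CPM in SK-GT-4, 3.58 CPM in ESO-26, 539 CPM in ESO-51, 0.0377 CPM in OE33, 0.449 CPM in OACP4_C and 0.178 CPM in OE19. ESO-51 stood far above the rest, from 24252 counts (95% interval 532 to 546 CPM), while 5 libraries had at most 26 counts. The FLO-1 and OE33 values rest on 3 counts and 1 count, with upper bounds of 0.117 and 0.210 CPM, so their order was not detectable at this depth. An antisense gene, CCND2-AS1, overlaps CCND2, and without a stated strand setting its reads cannot be told apart from those of CCND2. A protein-coding gene on the same strand, AC008012.1, overlaps it too, and strand could not separate those reads.

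CCND3, which encodes cyclin D3, was detected everywhere, at 89.7 CPM in FLO-1, 19.2 CPM in JH_EsoAd1 and 54.6 CPM in OAC_5.1_C. Elsewhere it stood at 117 CPM in SK-GT-4, 17.8 CPM in ESO-26, 21.2 CPM in ESO-51, 36.3 CPM in OE33, 33.4 CPM in OACP4_C and 10.9 CPM in OE19. SK-GT-4 and FLO-1 were the high libraries, 2.09 and 1.72 above the median of the other 8 in log2, and OE19 the low one, at -1.59. JH_EsoAd1 and ESO-26 did not differ beyond counting error, with intervals of 17.4 to 21.2 and 15.8 to 19.9 CPM.

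How far each D cyclin contributed within a library was read per length, from the authors' FPKM (fragments per kilobase of the deposited gene length and per unit of depth). CCND1, the D cyclin gene most often amplified in cancer, led in 8 of 9 libraries and took 72.1% of the D cyclin sum in FLO-1 and 99.3% in OE19. In ESO-51 CCND2 took 91.1% and CCND1 7.10%. ESO-51 also had the lowest CCND1 level, 39.4 CPM, against 111 CPM in FLO-1 as the next lowest and 1285 CPM in JH_EsoAd1 as the highest. CCND3 took its largest share, 27.8%, in FLO-1. With the longest coding transcript as the length, CCND3 led there with 62.6%, while CCND2 still led in ESO-51 with 81.2%.

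CDK4, a catalytic partner of the D cyclins, was among the steadier genes. It held 35.7 CPM in FLO-1, 50.8 CPM in JH_EsoAd1 and 71.6 CPM in OAC_5.1_C. The remaining values were 44.4 CPM in SK-GT-4, 38.5 CPM in ESO-26, 39.7 CPM in ESO-51, 101.6 CPM in OE33, 64.7 CPM in OACP4_C and 48.8 CPM in OE19. OE33 was the one library past 2-fold, 1.11 above the median of the other 8 in log2. TSPAN31 and MARCH9 lie on the opposite strand and overlap it, and the deposited length of CDK4, 9225 bases, is well above its longest coding transcript of 2076 bases.

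CDK6, the paralogue of CDK4, varied far more. Its level was 724 CPM in FLO-1, 284 CPM in JH_EsoAd1 and 272 CPM in OAC_5.1_C, against 475 CPM in SK-GT-4, 1548 CPM in ESO-26, 157 CPM in ESO-51, 203 CPM in OE33, 559.6 CPM in OACP4_C and 81.8 CPM in OE19. ESO-26 stood highest, 2.47 above the median of the other 8 in log2, and OE19 lowest, at -2.15, with an 18.9-fold ratio between them. Over the 9 libraries CDK4 and CDK6 had r = -0.33 and rho = -0.43, and r = -0.23 without OE33 and OAC_5.1_C; the points share library depth and scaling, and this is a description only.

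Per deposited length CDK6 exceeded CDK4 in all 9 libraries, from 53.2% of their sum in OE19 to 96.5% in ESO-26. That order depended on the length used. With the longest coding transcript of GENCODE release 29, chosen after the data were seen, CDK6 led in 5 libraries and CDK4 in OE33, OE19, ESO-51 and OAC_5.1_C, where OE19 gave CDK4 76.9%. With the union of exons CDK6 led in 6. ESO-26, FLO-1, SK-GT-4, OACP4_C and JH_EsoAd1 had more CDK6 under every length tried, although JH_EsoAd1 was near equal with the longest coding transcript, at 50.02%.

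**Figure D3:**
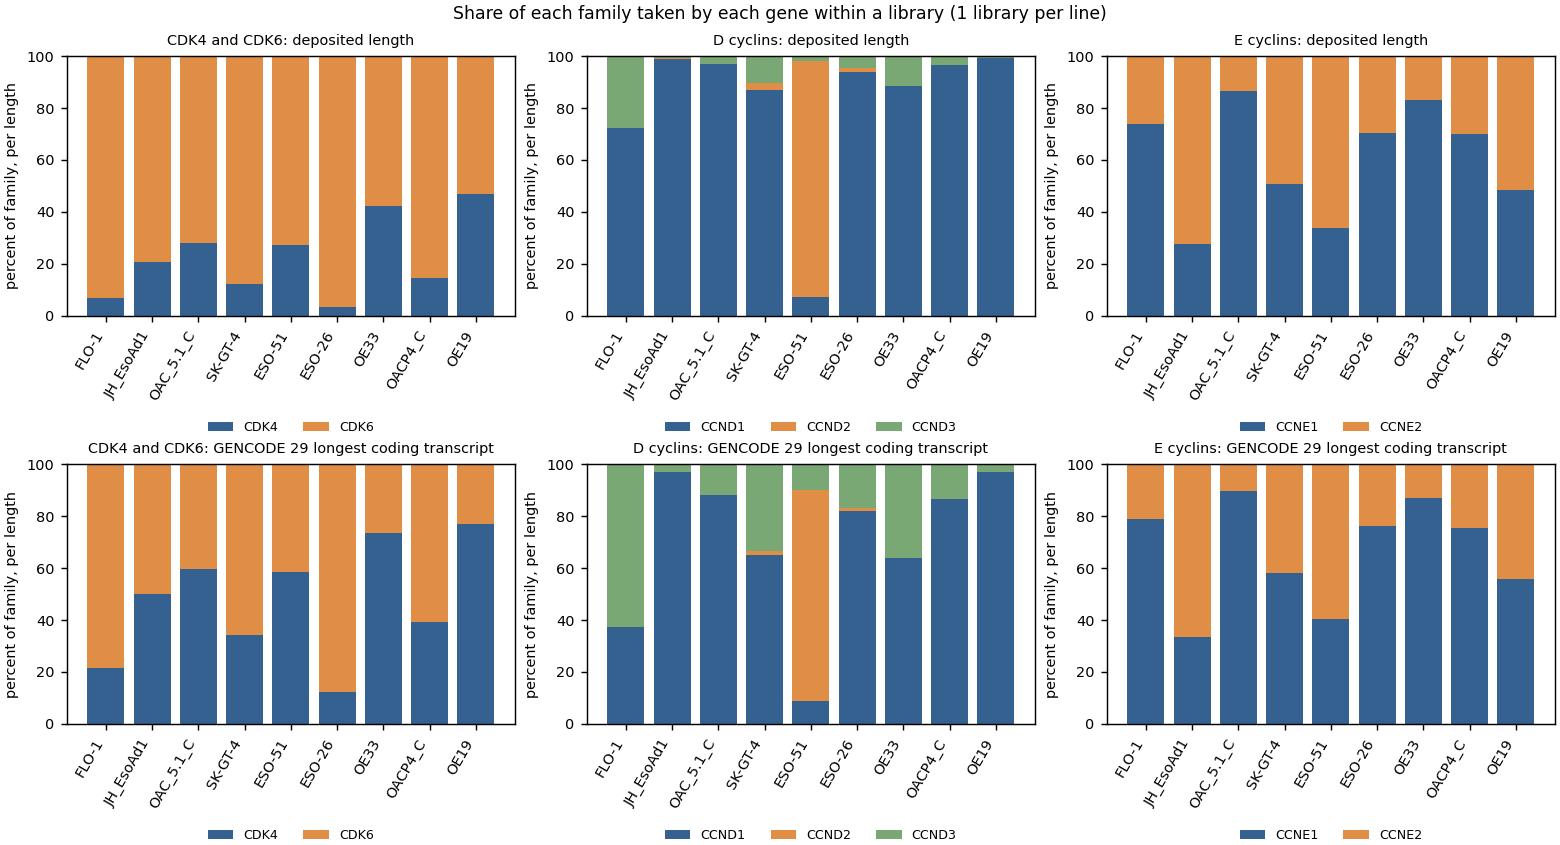
Percent of each family's summed level per length taken by each gene within a library, with the deposited gene length (top) and the longest coding transcript of GENCODE 29 (bottom); the 3 leftmost libraries have at most 3 CDKN2A counts. CCND2 fills 91.1% of the D cyclin bar in ESO-51 at the top, and CDK6 lies above 50% in 9 libraries at the top and 5 at the bottom.

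CDK4 is a well-known MYC target, and the promoter windows of CDK4 and CDK6 are shown because they differ in the E-box CACGTG, the hexamer that MYC with MAX binds. Windows run from 250 bases before to 50 bases after an annotated start and come from RefSeq on GRCh38.p14; the first is chr12:57752261-57752560 and the second chr7:92836524-92836823, both on the minus strand. Capitals mark CACGTG, which reads the same on both strands.
CDK4: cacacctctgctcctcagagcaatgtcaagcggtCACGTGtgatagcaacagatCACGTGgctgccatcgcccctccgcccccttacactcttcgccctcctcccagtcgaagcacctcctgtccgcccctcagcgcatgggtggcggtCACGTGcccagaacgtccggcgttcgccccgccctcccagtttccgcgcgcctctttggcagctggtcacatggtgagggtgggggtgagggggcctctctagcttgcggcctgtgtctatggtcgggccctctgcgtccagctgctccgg
CDK6: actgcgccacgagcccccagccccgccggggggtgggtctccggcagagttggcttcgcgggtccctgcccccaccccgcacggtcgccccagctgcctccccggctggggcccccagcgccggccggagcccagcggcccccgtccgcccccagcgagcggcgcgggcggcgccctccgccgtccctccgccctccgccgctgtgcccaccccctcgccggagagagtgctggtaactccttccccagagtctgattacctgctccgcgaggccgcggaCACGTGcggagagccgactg
CDK4 held 3 copies and this CDK6 window 1, while a second CDK6 window held 0. Of 35116 RefSeq windows of this length, 7.26% held at least 1 copy and 0.094% held 3 or more. Windows were listed for 7 of the 10 genes, but the one listed for RB1 lies inside the gene, far from its main start, and is left aside. CDKN2C had 1 copy in each of 2 of its 3 windows, and CCND3, CDKN1B and CCNE1 had 0. The E2F motifs TTTGGCGC and TTTCGCGC, sought on both strands and present in 0.652% and 0.515% of all windows, were in 0 of the other 11 windows searched. A match is a string of letters, not a site.

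CDKN2C encodes p18, an INK4 inhibitor of CDK4 and CDK6. It stood at 5.05 CPM in FLO-1, 12.6 CPM in JH_EsoAd1 and 14.7 CPM in OAC_5.1_C. Among the libraries with CDKN2A it held 23.4 CPM in SK-GT-4, 77.1 CPM in ESO-26, 5.42 CPM in ESO-51, 33.8 CPM in OE33, 3.92 CPM in OACP4_C and 28.9 CPM in OE19. ESO-26 was highest, 2.42 above the median of the other 8 in log2, and OACP4_C lowest, at -1.99. ESO-26 was thus highest for CDK6 and for this inhibitor of it; it was also the library with the lowest epithelial marker sum, whose part in these levels was not tested. FLO-1 and ESO-51 did not differ beyond counting error, with intervals of 4.56 to 5.59 and 4.77 to 6.15 CPM.

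CDKN1B had the narrowest range of the 10 genes. Its level was 53.0 CPM in FLO-1, 87.1 CPM in JH_EsoAd1 and 103 CPM in OAC_5.1_C, against 48.2 CPM in SK-GT-4, 113 CPM in ESO-26, 118 CPM in ESO-51, 77.9 CPM in OE33, 57.1 CPM in OACP4_C and 68.9 CPM in OE19. No library was 2-fold from the median of the other 8. p27 is controlled largely by protein turnover, which mRNA does not show. A list of 4 protein turnover genes held SKP2, CKS1B and CUL1, which act on p27, and FBXW7, which acts on other proteins. In FLO-1 the first 3 were at least 2-fold above, where 14.9% of all genes were. The median difference over the 4 was 1.21 there, against 0.02 over all genes. Over all 9 libraries the list had 4 of 36 values above (11.1%) and 3 below (8.33%), no more than the 12.8% and 10.3% of all genes. SKP2, the F-box protein that marks p27 for destruction, held 153 CPM in FLO-1 and 8.30 CPM in OE19, its extremes.

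The other CDK inhibitors varied more than CDKN1B. Of 45 values (5 genes in 9 libraries), 13 lay at least 2-fold above (28.9%, against 12.8% of all genes) and 10 at least 2-fold below (22.2%, against 10.3%), with a median range of 6.32 in log2. CDKN2A and CDKN2B, neighbours that encode p16 and p15, made up much of this, as given below. CDKN1A, the p53 target that encodes p21, was at 0.923 CPM in ESO-26, against 35.2 CPM in OE33 as the next lowest and 193 CPM in JH_EsoAd1 as the highest. CDKN2D, another INK4 gene, was highest in ESO-26 at 33.9 CPM, 2.74 above the median of the other 8 in log2.

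CCNE1, a cyclin partner of CDK2, peaked in OAC_5.1_C. It stood at 14.5 CPM in FLO-1, 9.02 CPM in JH_EsoAd1 and 73.6 CPM in OAC_5.1_C, against 18.1 CPM in SK-GT-4, 20.1 CPM in ESO-26, 6.20 CPM in ESO-51, 28.2 CPM in OE33, 12.1 CPM in OACP4_C and 2.602 CPM in OE19. The OAC_5.1_C value was 2.38 above the median of the other 8 in log2 and the OE19 value was at -2.26, on 73 counts (2.04 to 3.27 CPM).

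CCNE2, the second E cyclin gene, followed another order. It held 6.28 CPM in FLO-1, 29.1 CPM in JH_EsoAd1 and 14.0 CPM in OAC_5.1_C, against 21.3 CPM in SK-GT-4, 10.3 CPM in ESO-26, 14.9 CPM in ESO-51, 6.98 CPM in OE33, 6.42 CPM in OACP4_C and 3.39 CPM in OE19. JH_EsoAd1 and SK-GT-4 were the high libraries, and OE19 was lowest for both E cyclins. JH_EsoAd1 stood 1.67 above the median of the other 8 in log2, but with the authors' FPKM, which divide by a total of 107130303 counts in that library's own file against 24290184 in the table, the difference was -0.068. INTS8 and NDUFAF6 overlap CCNE2 on the opposite strand. Over the 9 libraries the E cyclins had r = 0.27 and rho = 0.13, and r = -0.42 without OAC_5.1_C and OE19, so the positive sign rested on those libraries.

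Per deposited length CCNE1 took the larger share of the E cyclin sum in 6 libraries, up to 86.5% in OAC_5.1_C, and CCNE2 in JH_EsoAd1, ESO-51 and OE19, up to 72.5% in JH_EsoAd1. OE19 passed to CCNE1 with the longest coding transcript, at 55.6%, and SK-GT-4 was near equal at 50.9% with the deposited length. The summed E cyclin level was 14.3 CPM per kilobase in OAC_5.1_C and 0.905 in OE19, the highest and the lowest.

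RB1, the pocket protein that holds E2F in check, was expressed in every library. It stood at 163 CPM in FLO-1, 95.1 CPM in JH_EsoAd1 and 88.5 CPM in OAC_5.1_C, against 142 CPM in SK-GT-4, 74.8 CPM in ESO-26, 137 CPM in ESO-51, 139 CPM in OE33, 63.4 CPM in OACP4_C and 68.9 CPM in OE19. FLO-1, SK-GT-4, OE33 and ESO-51 formed the upper part, yet no library lay 2-fold from the median of the other 8. SK-GT-4, OE33 and ESO-51 did not differ beyond counting error, with intervals of 138 to 147, 135 to 144 and 134 to 141 CPM. Several genes, among them LPAR6, overlap RB1 on the opposite strand.

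MYC was abundant throughout. Its level was 152 CPM in FLO-1, 91.7 CPM in JH_EsoAd1 and 91.7 CPM in OAC_5.1_C, against 193 CPM in SK-GT-4, 149.6 CPM in ESO-26, 71.1 CPM in ESO-51, 93.7 CPM in OE33, 220.2 CPM in OACP4_C and 466 CPM in OE19. OE19 was highest, 1.97 above the median of the other 8 in log2, and ESO-51 lowest, at -1.07, with a 6.55-fold ratio between them. JH_EsoAd1, OAC_5.1_C and OE33 did not differ beyond counting error, with intervals of 87.6 to 96.0, 89.0 to 94.4 and 90.03 to 97.4 CPM. MYC and CDK4 did not follow each other: r = -0.18 and rho = -0.12 over 9 libraries, and r = -0.46 without OE19 and ESO-51.

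Reading the genes beside CDKN2A asks whether the rest of the pathway is set differently where p16 mRNA is missing. CDKN2A, whose count joins p16 and the overlapping ARF transcript, had 3 counts in FLO-1 (0.0400 CPM), 1 count in JH_EsoAd1 (0.0496 CPM) and 0 counts in OAC_5.1_C, where the floor of 3 counts is 0.0617 CPM. The other libraries held 15.4 CPM in SK-GT-4, 36.7 CPM in ESO-26, 25.9 CPM in ESO-51, 50.7 CPM in OE33, 124 CPM in OACP4_C and 154 CPM in OE19. CDKN2B followed, at 0.0667, 0 and 0.0206 CPM in FLO-1, JH_EsoAd1 and OAC_5.1_C, against 9.63 to 79.2 CPM in the other 6.

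For 0 of the 10 genes did the 3 libraries nearly without CDKN2A all lie above, or all below, the other 6. Among all genes passing the filter, 1.4% lay above and 0.893% below in that way. RB1 spanned 88.5 to 163 CPM in the 3 libraries and 63.4 to 142 CPM in the other 6, with medians of 95.1 and 106 CPM. CDKN2C, the INK4 relative of CDKN2A, had medians of 12.6 and 26.1 CPM in those groups, and MYC 91.7 and 171 CPM, all overlapping. E2F1, whose product RB1 binds and which is itself an E2F target, did separate, at 51.2 to 57.1 CPM in the 3 libraries, against 6.81 to 50.8 CPM in the other 6. The gap for E2F1 was small and was lost with library size alone as the scaling and with the authors' FPKM.

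Within the 6 libraries that expressed CDKN2A, CCNE2 was lower where CDKN2A was higher, with r = -0.95 and rho = -1.0 on the log2 scale, and r = -0.99 over the 4 libraries left without OE19 and OACP4_C. RB1 had r = -0.78 and rho = -0.77 there, but r = -0.32 without those libraries, so it rested on them. The other 8 genes had r between -0.67 (CCND2) and 0.62 (MYC), and MYC turned to -0.47 without the same pair. These are descriptions of 10 relations over 6 libraries that share the scaling, with no test.

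Genes beside each of the 8 members that passed 2-fold were read in the library where that member was highest, taking the 5 nearest expressed protein-coding genes on each side in the GENCODE 29 order. Around CCNE1 in OAC_5.1_C, 8 of 10 neighbours were at least 2-fold above the median of the other 8 libraries, among them URI1, C19orf12, PLEKHF1, POP4 and UQCRFS1, and with 10 on each side 14 of 20 were. Around CCND3 in SK-GT-4, 7 of 10 and 16 of 20 were past the same threshold, and around CDK6 in ESO-26, 5 of 10 and 10 of 20. The share of all genes at least 2-fold above was 12.9% in OAC_5.1_C, 13.1% in SK-GT-4 and 12.2% in ESO-26.

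CCND2 in ESO-51 had 4 of 10 neighbours past 2-fold, and 7 of 20 with 10 on each side, where 12.7% of all genes were, with a median neighbour difference of 0.55 beside 8.69 for CCND2 itself. CDK4 in OE33 had 3 of 10 and 5 of 20, beside 13.1% of all genes. CCNE2 in JH_EsoAd1 had 2 of 10 and 4 of 20, beside 11.9%. MYC in OE19 had 2 of 10 and 3 of 20, beside 12.9%, and CDKN2C in ESO-26 had 1 of 10 and 2 of 20, beside 12.2%. In total 32 of 80 neighbours were at least 2-fold above. DNA copy number was not measured here.

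**Figure D4:**
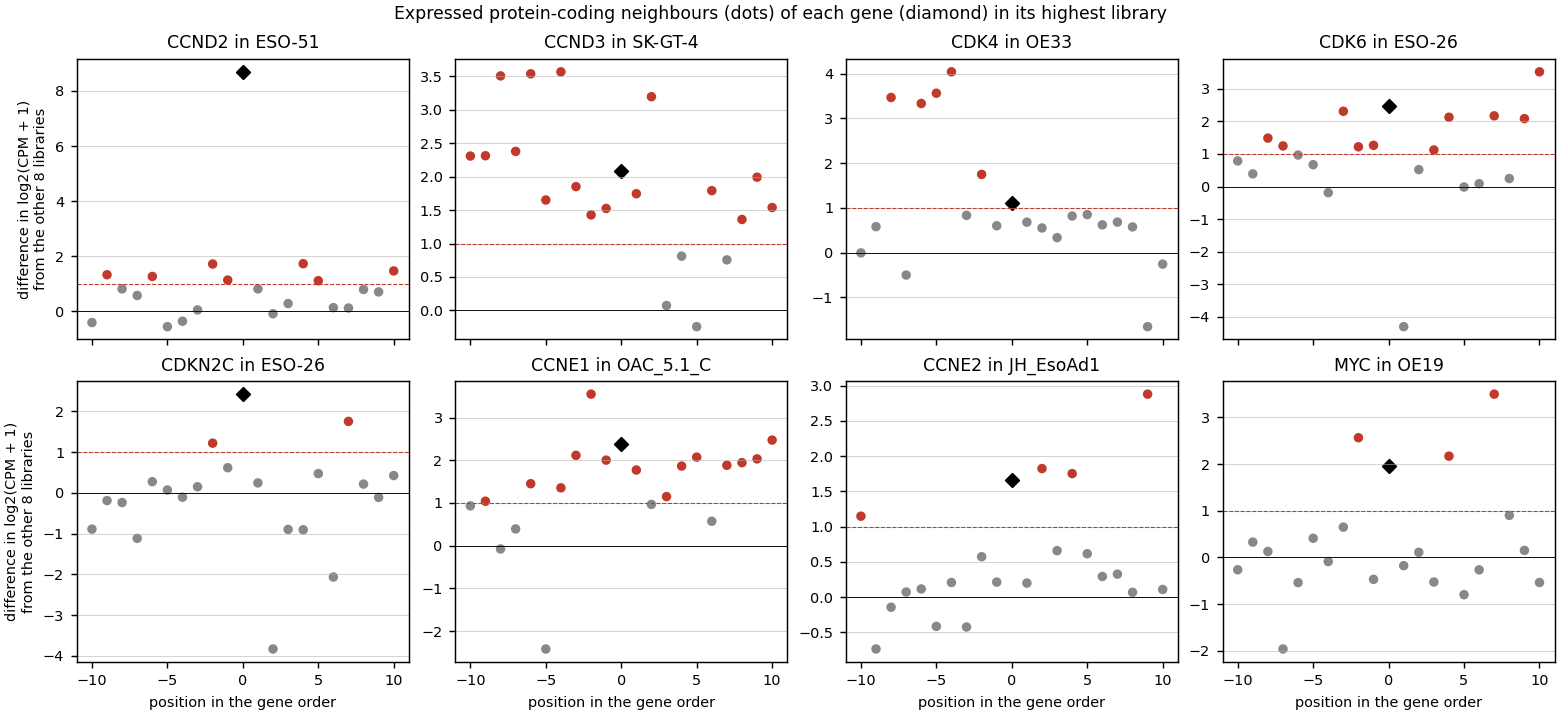
Difference in log2(CPM + 1) from the median of the other 8 libraries for each of 8 genes (diamond) in its highest library and for its 20 nearest expressed protein-coding neighbours (dots), by position in the gene order; the dashed line marks 2-fold and red dots lie past it. Red dots fill 14 of 20 places around CCNE1 and 2 of 20 around CDKN2C.

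Genes downstream and alongside were read from lists of 52 genes in all, which gave 468 values, 55 of them (11.8%) at least 2-fold above and 59 (12.6%) at least 2-fold below, near the background of all genes. E2F targets, which replicate DNA or drive mitosis, stood out in OE19, where 9 of 10 were at least 2-fold below, beside 13.4% of all genes there, with a median difference of -1.70 against -0.03 over all genes. PCNA, the sliding clamp of DNA replication, was at 34.5 CPM there, against 53.8 to 230.0 CPM in the other 8 libraries, and CDK1, the mitotic kinase, at 37.8 CPM, against 67.9 to 245 CPM. The E2F factor genes E2F1 and E2F8 were lowest in OE19 by 2-fold or more, with differences of -2.67 and -2.62. MKI67, a marker of cycling cells, was also lowest in OE19, at 140.5 CPM, and highest in OACP4_C, at 829.8 CPM. In bulk RNA, fewer cycling cells and less RNA per cell cannot be told apart. The library with the most CDKN2A and MYC mRNA thus held the least E cyclin, CDK6, E2F1 and MKI67 mRNA.

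In OE33, 4 of 10 E2F targets lay at least 2-fold below, beside 12.6% of all genes there, and in ESO-51 3 did, beside 11.5%, while FLO-1 and OAC_5.1_C each had 2 above, beside 14.9% and 12.9%. Of the 4 other cyclins and kinases of G1 and S phase (CCND1, CCNA2, CDK2 and CDC25A), 4 of 36 values lay above (11.1%) and 8 below (22.2%), against 12.8% and 10.3% of all genes. CCNA2, the S-phase cyclin, ranged between 34.8 CPM (OE33) and 187 CPM (ESO-26). Of 10 E2F and DP genes, 11 of 90 values lay above (12.2%) and 8 below (8.89%), near those backgrounds, and E2F2 was low in OACP4_C at 4.50 CPM. The pocket protein genes RBL1 and RBL2 had 0 of 18 values above and 2 below (11.1%).

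**Figure D5:**
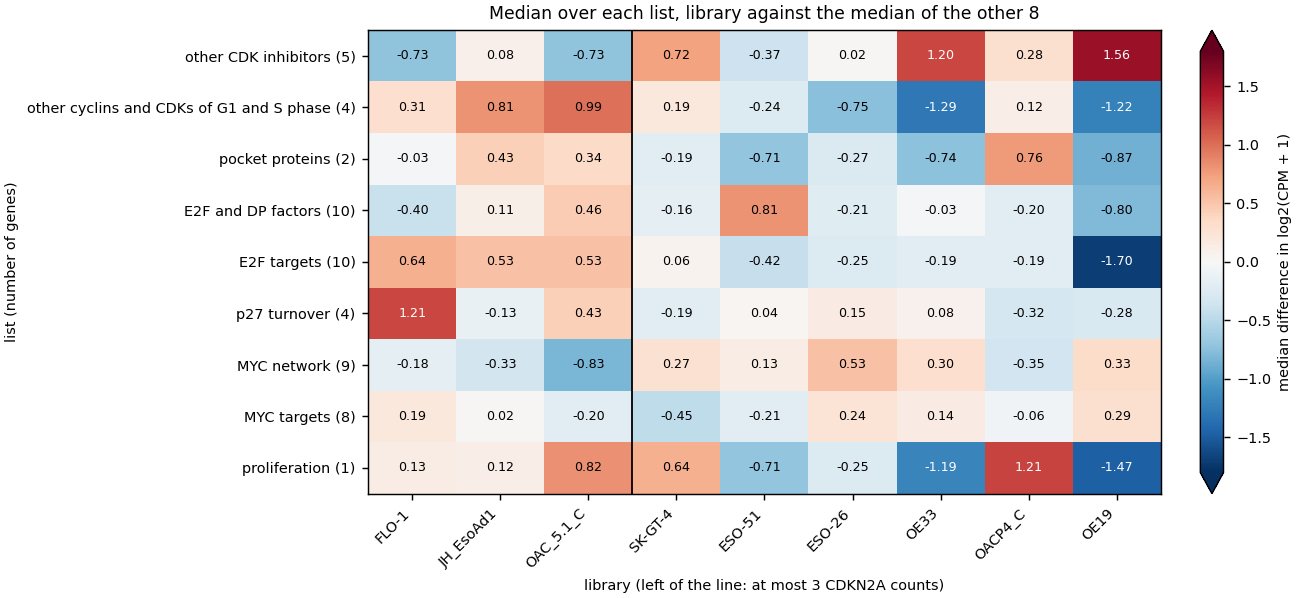
Median over each list of the difference in log2(CPM + 1) between a library and the median of the other 8; the line separates the 3 libraries with at most 3 CDKN2A counts. E2F targets in OE19 have the lowest median, -1.70, and the proliferation list is MKI67 alone. The list labelled p27 turnover also holds FBXW7, which acts on other proteins.

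Genes most like the 4 widest-ranging members were found among 11707 genes with at least 1 CPM in at least 5 libraries, by Pearson r over the 9 libraries. CCND2 was closest to XPO4, CDK8 and MYLIP, with r of 0.95, 0.95 and 0.94 but rho of 0.63, 0.33 and 0.82. CCNE1 was closest to RACGAP1 (r = 0.94, rho = 0.90), FUT10 and MSANTD3. CDK6 was closest to ZNF343 (r = 0.90, rho = 0.87), FAM83D and NRM. CDKN2C was closest to ZNF266 (r = 0.93), TPI1 (r = 0.92, rho = 0.97) and BORCS6. Of these 12 genes, 1, TPI1, was also among the 3 closest by rho.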

How the data were processed

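RNA of 9 cell lines was measured, 1 library per line. FastQC 0.11.7, STAR 2.6.1d, GRCh37 and R 3.6.1 are named, with no order or role, per the submitters' processing notes; the counting program, annotation and strand setting are not given in the sources used here. The design text mentions 3 technical replicates, and how they were joined is not given. The authors deposited a table of raw counts for 52158 named genes, per the file headers; a row without a name, 0.00485% to 0.00965% of counts, was left out, and 0 columns were unmapped. The column OACM5.1_C was taken as OAC_5.1_C. The authors also deposited counts, gene lengths and FPKM per line, per the file headers; each FPKM equalled the count over length and file total, and counts of the 10 genes, CCND1 and CDKN2A were equal in both sources.

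Counts were scaled with TMM in edgeR 4.0.16 (R 4.3.3; factors from 0.831 to 1.11, set on genes with at least 1 CPM in at least 2 libraries) and used as log2(CPM + 1). Fold changes on this scale understate changes of low genes. A gene was called at 2-fold or 4-fold from the median of the other 8 libraries. Poisson 95% intervals are exact, and 0 counts were given a floor of 3 counts; PCR reads are not independent molecules, so both cover counting error only. The rule was tried on simulated Poisson counts, with 8-fold changes planted in 1 library for genes with a median of at least 5 CPM. The simulated lines did not otherwise vary. That setting cannot show how the rule acts on smaller changes, on genes with few counts or on lines that vary. Alternatives were DESeq2 1.42.0 size factors, library size alone, TMM without mitochondrial genes, pseudocounts of 0.1 and 5, FPKM, other filters, other gene lengths and leaving out libraries. GENCODE 29, on another build, gave names, lengths and gene order but no coordinates. Python 3.11.15 with numpy 2.4.6, pandas 2.3.3, scipy 1.17.1 and matplotlib 3.10.9 served for the rest.

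The members and lists were chosen with earlier results of these data known. Named beside the 10 genes are CCND1, CDKN2A, CDKN2B, CDKN1A, E2F1, CCNA2 and MKI67, list genes at least 4-fold from the median of the other 8 in a library (at most 4 per list), and the 3 genes most like each of the 4 widest-ranging members; neighbours named beside CCNE1, and NCL and MAX, were chosen after their values were seen. A gene that this rule selects is not reported here.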

Additional observations from a re-analysis of the deposited data

How the results depend on the processing

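No paired analysis was possible because each line has 1 library. Depth limits CCND2 and CDKN2A where they have few counts, and the pseudocount sets how far such genes count as low. The number of values at least 2-fold above was 19 of 90, and 12 of 90 with a pseudocount of 5, where 8.12% of all genes were. With each library left out in turn it was 14 to 17 of 80. That is 17.5% to 21.2%, against 12.7% to 13.5% of all genes. Those at least 2-fold below (14) were 9 with a pseudocount of 5, 8 without the libraries labelled OE19 and SK-GT-4, and 7 to 16 with each library left out. Values at least 4-fold below (2) numbered 7 with a pseudocount of 0.1, 1 with a pseudocount of 5, 1 with FPKM and 0 without OE19 and SK-GT-4. With each library left out they numbered 1 to 6, and those above (6) numbered 5 to 9. The share of all genes at 4-fold was counted in the main setting only, so these counts have no background of their own. The median range (3.04) was 2.99 with library size alone, 3.24 and 2.78 with pseudocounts of 0.1 and 5, 2.47 with FPKM, 2.16 without OE19 and SK-GT-4, and 2.35 to 3.04 with each library left out. Neighbours past 2-fold (32) numbered 61 with 10 on each side, 21 without OE19 and SK-GT-4 (members highest in those libraries drop out) and 22 to 30 with each library left out. CDK6 led CDK4 in 5 libraries with the longest coding transcript. The count of genes whose groups by CDKN2A status do not overlap was 0 under each of 17 alternatives run. The other filters and a CDKN2A limit of 1 CPM could not change it, because the genes, values and groups stayed the same. CCNE2 in JH_EsoAd1 turned to -0.068 with FPKM. Of 148 recomputed differences of a member in its highest library, 147 kept their sign. The sign could not turn where only the pseudocount changed or other libraries were left out, because the highest library stays highest there. Most of that count was therefore fixed in advance. Leaving out both OE19 and SK-GT-4, and the GENCODE lengths, were chosen after seeing the data.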

Other observations

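Genes of the MYC network differed in how far they varied: on the log2 scale MYC ranged over 2.69, MYCN and MGA over 6.07 and 5.91, and MAX, the partner of MYC, over 1.85. MYCN, the paralogue of MYC best known from neuroblastoma, was at 66.3 CPM in ESO-26 and 16.0 CPM in OAC_5.1_C, while the other 7 libraries held at most 0.836 CPM. MGA, a MAX partner that opposes MYC, was at 2.30 CPM in OAC_5.1_C and 7.48 CPM in OE19, against 90.7 to 198 CPM elsewhere. MXD3, another MAX partner, was highest in ESO-26 at 59.6 CPM. Of 81 values of the 9 network genes, 14 lay at least 2-fold above the median of the other 8 libraries (17.3%, against 12.8% of all genes) and 8 below (9.88%, against 10.3%). Of 72 values of 8 well-known MYC targets, 4 lay above (5.56%) and 3 below (4.17%), under those backgrounds. In OE19, with the most MYC mRNA, 1 of the 8 targets was at least 2-fold above, with a median difference of 0.29 in log2. In ESO-51, with the least MYC mRNA, the median difference over the targets was -0.21; FBL, a nucleolar methyltransferase, was lowest there at 36.2 CPM, while NCL, the nucleolin gene, was highest there at 712 CPM.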
